A study of Homo sapiens with 6 samples.

Results

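Integrins and laminins are the receptors and the sheet proteins by which epithelial cells hold on to a basement membrane, and the genes described here are all protein-coding genes of the deposited count table whose symbols name an integrin alpha or beta subunit or a laminin alpha, beta or gamma chain. They numbered 37 of the 30230 genes in that table, with 25 integrin and 12 laminin genes, and ITGA8 had no row. Polyadenylated RNA was sequenced from A549 cells, an established human lung adenocarcinoma line, in 3 libraries labelled NC and 3 libraries labelled siFSCN1. The siFSCN1 cells carried an siRNA against FSCN1, which encodes the actin-bundling protein fascin, and the NC cells carried a control that the labels call a plasmid and the methods of the study call a scrambled siRNA. The study names a single siRNA sequence for the siFSCN1 libraries, so that effects of this sequence and of FSCN1 loss cannot be told apart. No other genetic change or agent is named for either group, all libraries come from 1 cell line, and the study calls the 3 libraries of a group biological replicates.

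An integrin is a pair of one alpha and one beta subunit that spans the plasma membrane. The pair decides the ligand: some alpha subunits bind laminin, some collagen, some the short RGD motif of fibronectin and vitronectin, and others belong to white blood cells. A laminin is a cross-shaped trimer of one alpha, one beta and one gamma chain that self-assembles into the basement membrane. Laminin-332, to which LAMA3 and LAMB3 contribute, anchors stratified and glandular epithelia through hemidesmosomes, and laminin-511 (LAMA5, LAMB1 and LAMC1) is the widespread form under adult epithelia, lung included. Inside the cell, integrins are tied to actin by talin, kindlin and the other proteins of the adhesion plaque.

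FSCN1 itself stood at 44.98, 47.2 and 46.0 FPKM (fragments scaled to gene length and to library size, as deposited) in NC and at 4.46, 2.82 and 3.19 FPKM in siFSCN1, so the silenced gene followed the labels in every library, at a fitted 6.75% of NC. Libraries held between 27967301 and 36560919 counts. Libraries of a group differed from each other by more than counting noise (chi-square per degree of freedom 3.06 to 8.16), and libraries of different groups by far more (106 to 131). All 8 epithelial and A549 markers were expressed, and 3 were higher, 4 lower and 1 did not pass. The keratins KRT8 (log2 fold change -0.88), KRT18 (-0.99) and KRT19 (-1.10) fell, EPCAM (0.29) and CDH1 (1.35) rose, and the part of these shifts in the changes below was not tested. Of the fibroblast markers, whose summed CPM was 4.25 to 5.09 in NC and 2.94 to 4.80 in siFSCN1, COL1A1 stood at 0.28 and 0.29 mean FPKM and THY1 fell from 0.14 to 0.08, while DCN, COL3A1 and COL1A2 were at or near 0. The 5 endothelial markers had means of at most 0.027 FPKM. Fold changes below are fitted by edgeR on counts scaled by TMM, and a gene "passed" at a Benjamini-Hochberg adjusted p under 0.05 over the 17076 genes tested. FPKM carries no such scaling factor, so that ratios of FPKM read 1.14 times higher in siFSCN1 than fitted folds do.

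Of the 37 genes, 34 had enough counts to be tested. Silencing went with higher levels of 17 genes and lower levels of 7, and 10 did not pass. Among all genes tested, 35.1% passed as higher and 33.2% as lower. Changes of at least 2-fold were fewer, with 6 genes higher and 2 lower, against a background of 11.7% and 4.85% of all genes. All 6 rises and 1 of the falls were among the 23 tested genes under 5 FPKM in both groups. Of all 11289 tested genes at that low level, 1841 rose and 474 fell at least 2-fold. The CPM (counts scaled to library size after TMM) of the groups did not overlap for 17 higher and 8 lower genes, where the background was 36.8% and 34.4%. The median log2 fold change of the 34 genes was 0.21, and that of all genes tested was 0.03. The integrin genes were mixed, with 10 of 23 higher and 6 lower, and of the 11 laminin genes tested 7 were higher.

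The abundant genes gave the clearest picture. In all, 11 genes had a mean of at least 5 FPKM, and each of these had it in both groups. They were ITGA3, ITGAV, ITGA6, ITGB1, ITGB4, ITGB5, LAMA5, LAMB1, LAMB2, LAMB3 and LAMC1. Of these, 7 were higher, only ITGA3 was lower, and ITGA6, ITGB4 and LAMB3 did not pass. Among the 5786 genes at that level in the whole table, 25.4% were higher and 57.6% were lower, with a median log2 fold change of -0.21.

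**Figure D1:**
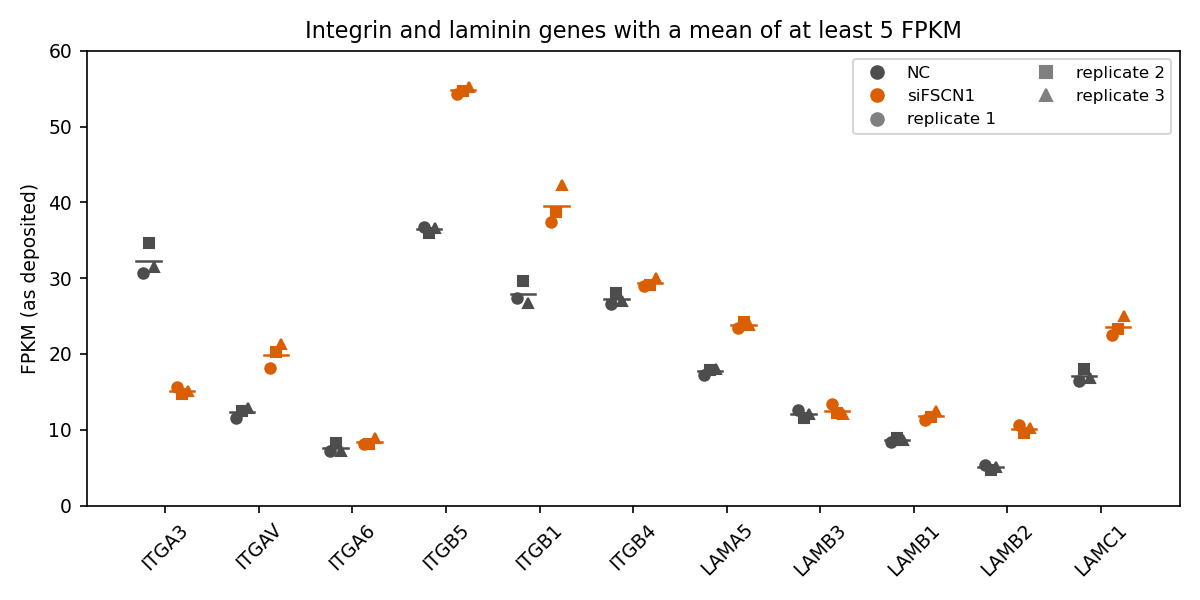
FPKM as deposited (y axis) of the 11 integrin and laminin genes with a mean of at least 5 FPKM, by library. Points are single libraries, with a symbol for each replicate number, grey for NC and orange for siFSCN1, and lines are group means; ITGA3 falls from 32.3 to 15.1 while ITGAV, ITGB5, ITGB1, LAMA5, LAMB1, LAMB2 and LAMC1 lie higher in all 3 siFSCN1 libraries.

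Among the laminin-binding alpha subunits, ITGA3 fell and ITGA6 and ITGA7 did not pass. ITGA3 (chr17:50055968-50090481, plus strand, GRCh38), whose product pairs with ITGB1 to bind laminin-332 and laminin-511, was the most abundant alpha subunit of NC cells. Its levels were 30.7, 34.7 and 31.4 FPKM in NC and 15.6, 14.7 and 15.1 FPKM in siFSCN1. Every siFSCN1 library thus lay below every NC library by a wide gap, and the fitted log2 fold change was -1.26 ± 0.04 (SE), or 41.7% of NC, at an adjusted p of 4.58e-14. In RNA from whole cultures, fewer cells that express a gene and less of its RNA in each cell cannot be told apart. ITGA6, which pairs with ITGB4 in hemidesmosomes and with ITGB1 elsewhere, stood at 7.23, 8.28 and 7.22 FPKM in NC and at 8.12, 8.13 and 8.95 FPKM in siFSCN1. Its groups overlapped, and its log2 fold change was -0.02 ± 0.06 (SE, adjusted p = 0.831). ITGA7, the laminin receptor of muscle, was at 0.17 and 0.20 mean FPKM and did not pass.

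The RGD-binding alpha subunits went apart. ITGAV, which pairs with several beta subunits and binds vitronectin, fibronectin and latent TGF-beta, stood at 11.6, 12.5 and 12.9 FPKM in NC and at 18.2, 20.3 and 21.3 FPKM in siFSCN1. No library of one group came near the other, and the log2 fold change was 0.53 ± 0.05 (SE, adjusted p = 9.9e-08). ITGA5, which with ITGB1 forms the classical fibronectin receptor, had 4.88, 5.26 and 4.67 FPKM in NC and 3.07, 3.23 and 3.27 FPKM in siFSCN1, again without overlap. Its log2 fold change was -0.79 ± 0.06 (SE, adjusted p = 8.69e-10). ITGA2B, the platelet subunit, was at 0.14 and 0.15 mean FPKM and did not pass.

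ITGA3 and ITGAV changed places in FPKM, which is scaled to gene length. The ratio of ITGAV to ITGA3, in FPKM, was 0.378, 0.360 and 0.409 in NC and 1.16, 1.38 and 1.41 in siFSCN1, so that ITGA3 was the more abundant of the pair in all 3 NC libraries and ITGAV in all 3 siFSCN1 libraries. In counts, which are not scaled to length, ITGA3 (5825) stayed above ITGAV (5681) in siFSCN1 replicate 1. The exact two-sided permutation p was 0.1, the smallest that 3 against 3 libraries can give. This ratio was chosen after the values had been seen, as were the other ratios given below.

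Collagen-binding alpha subunits were mostly scarce. ITGA2, the main one here, had a mean of 1.64 ± 0.15 (SD, n = 3) FPKM in NC against 1.503 ± 0.117 (SD, n = 3) in siFSCN1, and the test on counts gave a log2 fold change of -0.29 (adjusted p = 0.00877), which was -0.11 (adjusted p = 0.338) when libraries were scaled by their totals. ITGA1 rose from 0.25 to 0.53 mean FPKM, with a log2 fold change of 0.94 ± 0.11 (SE, adjusted p = 3.72e-07). PELO, a gene on the same strand, covers 2.69% of the exonic bases of ITGA1. PELO had 1336 to 1822 counts a library and a log2 fold change of -0.39. ITGA10, a collagen receptor of cartilage, had 22, 9 and 39 counts in NC and 45, 51 and 69 in siFSCN1, and ITGA11, a collagen receptor of fibroblasts, had 16, 7 and 9 counts in NC and 37, 38 and 42 in siFSCN1. Both passed as at least 2-fold higher, with log2 fold changes of 1.08 ± 0.31 (SE, adjusted p = 0.00546) and 1.68 ± 0.33 (SE, adjusted p = 2.1e-04). ITGA10 stayed under 2-fold without NC replicate 2 (log2 fold change 0.75) and without siFSCN1 replicate 3 (0.88).

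Most of the remaining alpha subunits are known from lymphocytes and myeloid cells. ITGA4 had 39, 14 and 22 counts in NC and 6, 7 and 10 in siFSCN1, a log2 fold change of -1.87 ± 0.43 (SE, adjusted p = 9.1e-04). The call ended with limma on log2(FPKM + 1), at -0.06 (adjusted p = 0.0694), and a stricter filter on low counts left out this gene and LAMB4. In the annotation 26.4% of its exonic bases lie opposite exons of CERKL, and the strand setting of the counting was not stated. ITGAL rose (0.96, adjusted p = 0.00198) and ITGAM fell (-0.67, adjusted p = 0.00766) at means of at most 0.38 FPKM, and ITGAX did not pass. ITGAE, whose pair with ITGB7 binds E-cadherin, was the one abundant member of this group at 4.02 ± 0.24 (SD, n = 3) FPKM in NC against 4.02 ± 0.21 (SD, n = 3) in siFSCN1. On counts its log2 fold change was -0.17 (adjusted p = 0.0143), which turned to 0.02 when libraries were scaled by their totals. ITGA9, with 0 to 4 counts a library, and ITGAD, with 0 to 3, were not tested. The summed CPM of the leukocyte markers was 6.99 to 8.18 in NC and 7.71 to 9.59 in siFSCN1, with CD14 and CD68 the only markers of the list that had enough counts to be tested. CD14 rose from 2.91 to 4.29 mean FPKM (0.40, adjusted p = 0.00528), CD68 fell from 0.51 to 0.24 (-1.24, adjusted p = 0.00198), PTPRC, CD3E and LYZ were at or near 0, and the part of such cells in these levels was not tested.

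Beta subunits were never called lower. ITGB5, which pairs only with ITGAV and binds vitronectin, had the highest FPKM of the integrin genes in every library. It stood at 36.7, 35.9 and 36.6 FPKM in NC and at 54.3, 54.7 and 55.2 FPKM in siFSCN1, a log2 fold change of 0.42 ± 0.04 (SE, adjusted p = 5.59e-09). ITGB1, the common partner of most alpha subunits, rose from 27.4, 29.6 and 26.7 FPKM in NC to 37.5, 38.7 and 42.3 FPKM in siFSCN1, with a log2 fold change of 0.33 ± 0.05 (SE, adjusted p = 8.5e-06). For both genes each siFSCN1 library exceeded each NC library. In CPM, not scaled to length, ITGB1 lay above ITGB5, at means of 512 against 299 in NC and 645 against 400 in siFSCN1. ITGB4, the hemidesmosome subunit, had 26.6, 28.1 and 26.9 FPKM in NC and 29.0, 29.1 and 30.0 FPKM in siFSCN1. Its FPKM did not overlap but its CPM did, and its log2 fold change was -0.05 ± 0.04 (SE, adjusted p = 0.212).

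Among the scarce beta subunits, ITGB6 showed the largest change. ITGB6 pairs with ITGAV in epithelia and activates latent TGF-beta, and it rose from 21, 18 and 20 counts in NC to 81, 96 and 84 counts in siFSCN1, a log2 fold change of 1.96 ± 0.22 (SE, adjusted p = 2.86e-07) at a mean of 0.40 FPKM in siFSCN1. A long non-coding gene on the same strand covers 16.7% of its exonic bases, so that reads there can be assigned to either. ITGB8, the other partner of ITGAV that activates TGF-beta, had 24, 23 and 24 counts in NC and 50, 48 and 43 in siFSCN1 (log2 fold change 0.80 ± 0.25 SE, adjusted p = 0.00758). ITGB2, the leukocyte subunit, had 28, 6 and 26 counts in NC and 59, 49 and 58 in siFSCN1, a log2 fold change of 1.29 ± 0.32 (SE, adjusted p = 0.00156) that fell to 0.92 without NC replicate 2. ITGB3 and ITGB7, at means of at most 0.11 FPKM, did not pass, and 42.3% of the exonic bases of ITGB7 lie opposite ZNF740 while 33.2% of those of ITGB3 are shared with a gene on the same strand. ITGAV, ITGB5, ITGB6 and ITGB8, an alpha subunit and 3 of its partners, were thus all higher, ITGB1 as well, and ITGB3, another partner of ITGAV, did not pass.

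**Figure D2:**
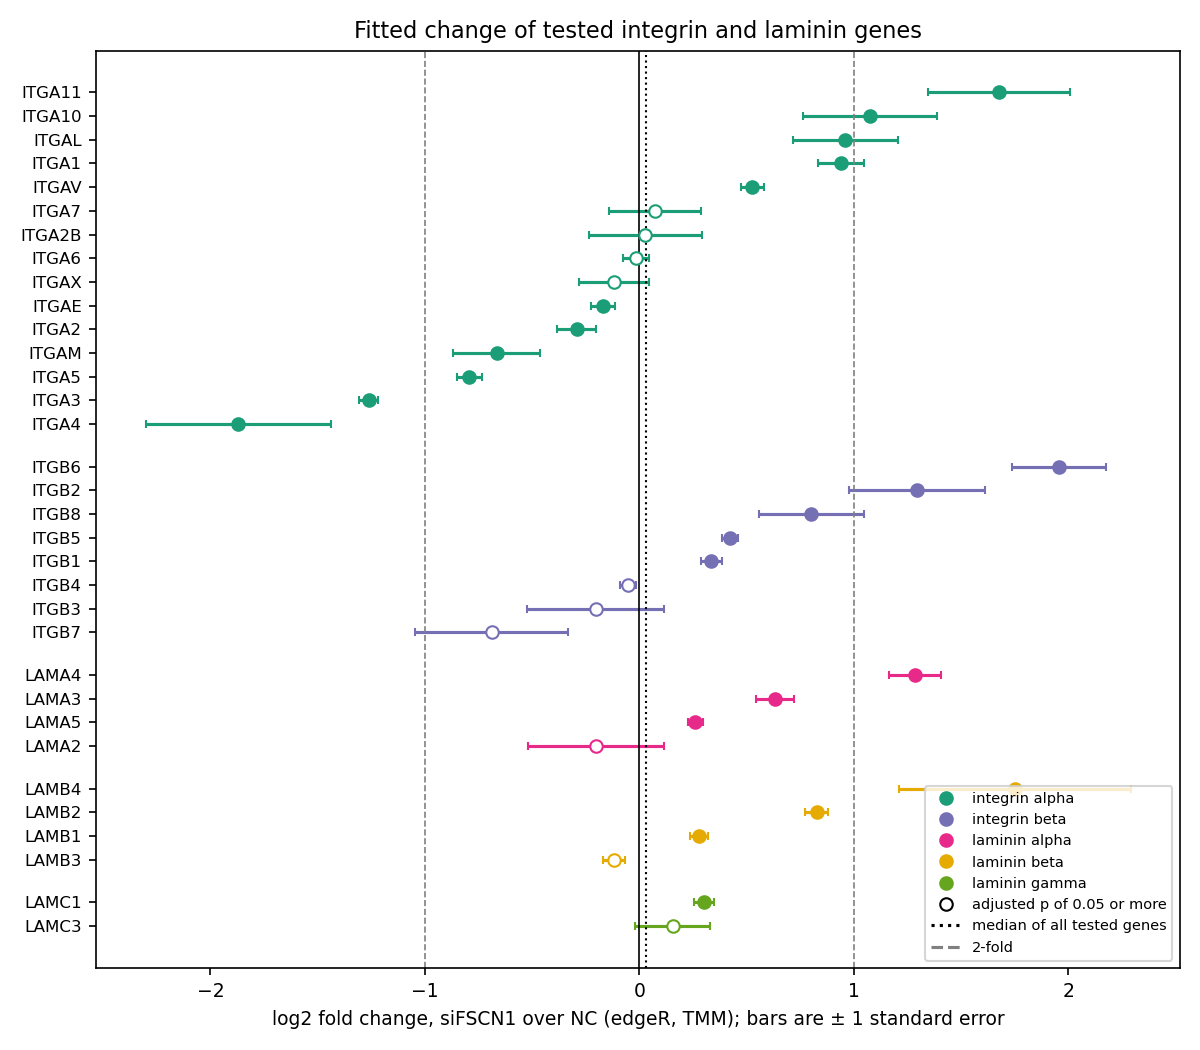
Log2 fold change of siFSCN1 over NC (x axis, edgeR on TMM-scaled counts, bars ± 1 standard error) for tested genes by chain class. Filled points have an adjusted p under 0.05, the dotted line is the median of all tested genes (0.03) and dashed lines mark 2-fold; ITGA4 (-1.87) and ITGA3 (-1.26) lie beyond 2-fold lower, and ITGB6 (1.96) has the highest value.

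The chains of laminin-511 all rose. LAMA5 stood at 17.2, 17.9 and 18.04 FPKM in NC and at 23.4, 24.2 and 23.8 FPKM in siFSCN1, LAMB1 at 8.43, 8.97 and 8.63 FPKM and at 11.3, 11.7 and 12.4 FPKM, and LAMC1 at 16.4, 17.98 and 16.9 FPKM and at 22.5, 23.3 and 25.0 FPKM. The groups did not overlap for any of these chains. Their fitted changes were small and close to each other, with log2 fold changes of 0.26 ± 0.04 (SE, adjusted p = 4.67e-06) for LAMA5, 0.28 ± 0.04 (SE, adjusted p = 1.3e-05) for LAMB1 and 0.30 ± 0.05 (SE, adjusted p = 1.3e-05) for LAMC1.

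Of the laminin-332 chains LAMA3 and LAMB3, LAMA3 rose and LAMB3 did not pass. LAMA3 stood at 0.63, 0.84 and 0.73 FPKM in NC and at 1.31, 1.24 and 1.28 FPKM in siFSCN1 (log2 fold change 0.63 ± 0.09 SE, adjusted p = 3.65e-06). LAMB3, the more abundant of these chains, had 12.7, 11.5 and 12.1 FPKM in NC and 13.4, 12.2 and 12.02 FPKM in siFSCN1. Its groups overlapped and its log2 fold change of -0.12 ± 0.05 (SE) just missed the threshold at an adjusted p of 0.0551. The adjusted p of LAMB3 fell under 0.05 with DESeq2 (0.0402), with RLE scaling (0.0349), with no filter on low counts (0.0392), without NC replicate 2 (0.0212) and without siFSCN1 replicate 1 (0.00857), all in the same direction, and with library totals the log2 fold change was 0.07 (adjusted p = 0.233).

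Of the other laminin chains, LAMB2 showed the largest change at an appreciable level. LAMB2, the beta chain of laminin-521 and of vascular and synaptic basement membranes, rose in FPKM from 5.32, 4.73 and 5.14 in NC to 10.6, 9.51 and 10.2 in siFSCN1, without overlap, and its log2 fold change was 0.83 ± 0.05 (SE, adjusted p = 2.22e-10). The pseudogene LAMB2P1, which has its own row, had at most 19 counts a library. LAMA4, a chain of endothelial and mesenchymal laminins, rose from 111, 81 and 113 counts in NC to 285, 259 and 298 counts in siFSCN1, a log2 fold change of 1.28 ± 0.12 (SE, adjusted p = 3.38e-08). The 5 endothelial markers together reached at most 0.353 CPM in any library. The fibroblast markers summed to 4.25 to 5.09 CPM in NC and 2.94 to 4.80 in siFSCN1. The part of such cells in the LAMA4 level was not tested. LAMB4 had 6, 1 and 3 counts in NC and 12, 12 and 15 in siFSCN1 (log2 fold change 1.75 ± 0.54 SE, adjusted p = 0.00812), and its log2 fold change was 2.47 without NC replicate 1 and 1.39 without NC replicate 2. LAMA2 and LAMC3, at means of at most 0.25 FPKM, did not pass, and LAMA1, with 1 to 11 counts, was not tested.

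Letters that the activator protein 1 factors (AP-1, the Fos and Jun families) bind are known in genes of epithelial adhesion, and short promoter windows are shown here so that the genes with such a motif can be set beside their changes. The motif TGANTCA, which reads the same on both strands, was searched in RefSeq promoters of GRCh38.p14 that run from 250 bases before to 50 bases after a gene's start. Of the 37 genes, 25 matched, with 32 promoters, and 3 of these (9.38%) held the motif, against 7.71% of 35116 promoters in all. The windows below are written 5′ to 3′ on the strand of the gene, with the motif in capitals. They lie at chr12:54419255-54419283 (minus strand) for ITGA5, at chr18:23872884-23872912 and chr18:23872940-23872968 (plus strand) for LAMA3, and at chr1:209651424-209651452 (minus strand) for LAMB3.
ITGA5: cctccccgcgtTGAGTCAttcgcctctgg
LAMA3, distal match: ctggcacaggcTGACTCAtgtgtgaagtt
LAMA3, proximal match: ccttcctcaccTGAGTCAggcaggcccgg
LAMB3: gtcagccactcTGACTCAttcactttggg
The first motif base lay 6 bases before the start of ITGA5, 125 and 69 bases before a start of LAMA3, and 67 bases before a start of LAMB3. The central base was G in ITGA5 and in the proximal LAMA3 match and C in the distal LAMA3 match and in LAMB3. ITGA5 fell, LAMA3 rose and LAMB3 did not pass, so that the genes with the motif shared no direction. ITGA3 and ITGB4 had no entry.

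Summing FPKM over a class of integrin subunits or of laminin alpha or beta chains put the changes of single genes into proportion. The alpha subunits summed to 61.5, 67.7 and 63.6 FPKM in NC and to 52.4, 53.9 and 56.0 FPKM in siFSCN1, and the beta subunits to 91.1, 94.0 and 90.6 FPKM and to 122, 123 and 128 FPKM. The alpha sum was lower in all 3 siFSCN1 libraries, at 0.842 of NC, and the beta sum higher in all 3, at 1.35 times NC. The ratio of the beta sum to the alpha sum was therefore 1.48, 1.39 and 1.42 in NC and 2.32, 2.29 and 2.29 in siFSCN1. The exact two-sided permutation p was 0.1 for each of these, the smallest possible.

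The laminin alpha and beta classes rose side by side. The sums in siFSCN1 were 1.38 times those of NC for alpha chains and 1.33 times for beta chains, with no overlap of groups and an exact two-sided permutation p of 0.1 each. After division by the TMM factors the same ratios were 1.21 and 1.17, with 0.739 for integrin alpha and 1.19 for integrin beta subunits. The ratio of laminin beta to alpha chains, 1.38 ± 0.07 (SD, n = 3) in NC against 1.34 ± 0.06 (SD, n = 3) in siFSCN1, differed by less than the spread between libraries (exact permutation p = 0.5).

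Shares within a class do not depend on how libraries are scaled. ITGA3 made up 49.9%, 51.3% and 49.4% of the alpha sum in NC and 29.8%, 27.2% and 26.9% in siFSCN1. ITGAV went the other way, from 18.9%, 18.5% and 20.2% in NC to 34.7%, 37.6% and 38.0% in siFSCN1, and ITGA6 from 11.8% ± 0.4 (SD, n = 3) to 15.5% ± 0.4 (SD, n = 3). By this length-scaled measure ITGAV was the leading alpha subunit of the silenced cells.

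By the same length-scaled measure ITGB5 led the beta subunits in both groups, whereas in CPM ITGB1 led them in both. In FPKM ITGB5 held 39.6% ± 1.2 (SD, n = 3) of the beta sum in NC against 44.01% ± 0.89 (SD, n = 3) in siFSCN1, ITGB1 30.4% ± 1.1 (SD, n = 3) and 31.7% ± 1.1 (SD, n = 3), and ITGB4 29.6% ± 0.4 (SD, n = 3) and 23.6% ± 0.2 (SD, n = 3). The shares of ITGB1 overlapped between groups (exact permutation p = 0.3), and those of ITGB5 and ITGB4 did not. In FPKM the NC levels of ITGB1 and ITGB4 did not differ beyond their spread, at 27.9 ± 1.5 (SD, n = 3) and 27.2 ± 0.8 (SD, n = 3). In siFSCN1 the FPKM of ITGB1 exceeded that of ITGB4 in every library. In CPM ITGB1 exceeded ITGB4 in every library of both groups, with means of 512 against 231 in NC.

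The make-up of the laminin classes changed most among beta chains. LAMB3 held 47.9%, 45.6% and 46.8% of the beta sum in NC and 37.9%, 36.4% and 34.6% in siFSCN1, LAMB2 20.1%, 18.8% and 19.9% and then 29.9%, 28.5% and 29.4%, and LAMB1 33.6% ± 1.9 (SD, n = 3) and 34.3% ± 1.9 (SD, n = 3), with overlap. LAMA5 held 94.4% ± 0.3 (SD, n = 3) of the alpha sum in NC against 92.2% ± 0.2 (SD, n = 3) in siFSCN1. The ratio of LAMB2 to LAMB3 was 0.420, 0.412 and 0.424 in NC and 0.790, 0.783 and 0.848 in siFSCN1, so that LAMB2 gained on LAMB3 without overlap. The ratio of LAMA5 to LAMA3 fell, from 27.3, 21.3 and 24.7 to 17.9, 19.5 and 18.6. These shares and ratios are in FPKM, which is scaled to gene length. In CPM, not scaled to length, LAMB1 led the beta chains in both groups. Its mean CPM was 203 in NC and 246 in siFSCN1, against 70.7 and 65.2 for LAMB3 and 43.8 and 77.6 for LAMB2.

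**Figure D3:**
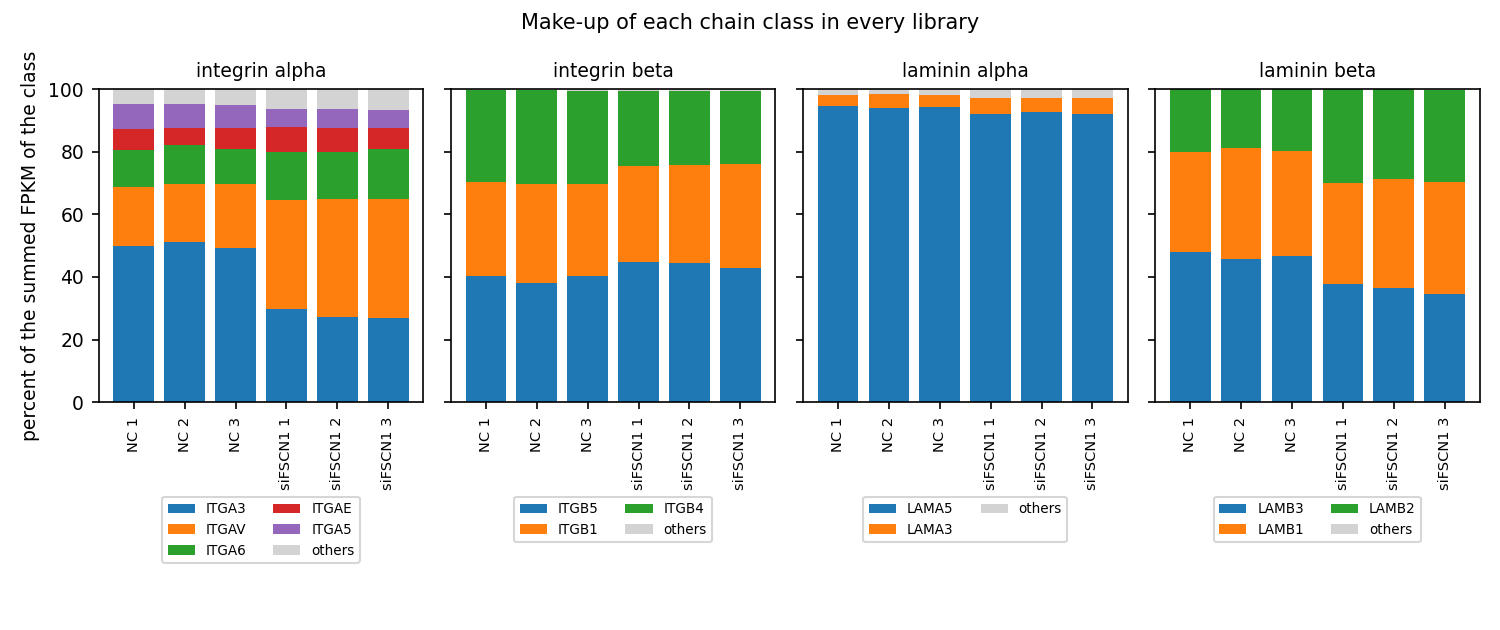
Percent of the summed FPKM of integrin alpha, integrin beta, laminin alpha and laminin beta genes (y axis) held by each gene in every library (x axis), with genes that stay under 3% in all libraries joined as others. ITGA3 shrinks from 50.2% to 27.96% of the alpha subunits and LAMB3 from 46.8% to 36.3% of the laminin beta chains, while ITGAV and LAMB2 widen.

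Genes that act with integrins and laminins were read from 4 lists. Basement membrane components, hemidesmosome proteins and other laminin receptors counted 16 of 24 tested genes higher and 5 lower, with a median log2 fold change of 0.62. Among all genes tested 35.1% were higher and 33.2% lower with a median of 0.03. Among genes under 5 FPKM the shares were 40.1% and 20.7%, and among genes at 5 FPKM or more 25.4% and 57.6%. The called 2-fold changes in this list were all rises and led by collagens: COL4A3 (2.14), COL4A4 (1.84) and COL4A5 (1.34), chains of the network-forming collagen IV of specialised basement membranes, and COL7A1 (1.72), the anchoring fibril collagen beneath them. COL7A1 stood at 3.90 ± 0.28 (SD, n = 3) FPKM in NC against 14.4 ± 0.4 (SD, n = 3) in siFSCN1. FREM2 had no row.

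Among the non-laminin ligands of integrins, 7 of 17 tested genes were higher and 5 lower, with a median of 0.08. These counts were near the 35.1% higher and 33.2% lower of all genes tested. Genes under 5 FPKM had 40.1% and 20.7%, and genes at 5 FPKM or more had 25.4% and 57.6%. The list holds genes of both levels. FN1, fibronectin, rose from 14.2 ± 0.4 (SD, n = 3) to 33.8 ± 2.1 (SD, n = 3) FPKM (log2 fold change 1.08, adjusted p = 2.82e-13), while ITGA5 of the fibronectin receptor fell. CDH1, E-cadherin and the ligand of the ITGAE pair, rose from 9.23 to 26.4 mean FPKM (1.35), and TGFB2, whose latent form differs from that of TGFB1 in lacking the RGD motif, from 2.21 to 7.45 (1.59). NPNT, nephronectin, rose as well (1.504). TGFBI, a secreted matrix protein that integrins bind, fell from 70.7 ± 2.5 (SD, n = 3) to 21.9 ± 1.1 (SD, n = 3) FPKM (log2 fold change -1.86, adjusted p = 3.06e-16). VTN, the vitronectin gene, was looked up after the values of its receptor subunits ITGAV and ITGB5 had been seen, and rose from 6.90 to 12.7 mean FPKM (0.71, adjusted p = 2.04e-06). VCAM1 had no row, and EDIL3 and COL1A2 were not tested.

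The activators and plaque proteins that join integrins to actin split evenly. Of 38 genes 14 were higher, 13 lower and 11 did not pass, with a median log2 fold change of 0.01. This split was near that of all genes tested, with 35.1% higher, 33.2% lower and a median of 0.03. Among all genes at 5 FPKM or more, 25.4% were higher and 57.6% lower, with a median of -0.21. Genes under 5 FPKM had 40.1% and 20.7%, and the list holds genes of both levels. TNS1, a tensin that links beta tails to actin, rose from 0.54 to 1.597 mean FPKM (1.41, adjusted p = 6.33e-11), and PTK2B, a kinase related to focal adhesion kinase, from 1.38 to 3.96 (1.34, adjusted p = 5.77e-11). Talin and paxillin were named after their values had been seen. TLN1, the talin that switches integrins on, rose (0.55, adjusted p = 8.88e-10), and PXN, the paxillin scaffold, fell (-0.89, adjusted p = 3.34e-12).

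Of the genes of integrin traffic and surface partners, 9 of 17 tested were lower and 5 higher, with a median of -0.26. Among all genes at 5 FPKM or more 25.4% were higher and 57.6% lower, with a median of -0.21. Among all genes tested 35.1% were higher and 33.2% lower, with a median of 0.03. TSPAN15, a tetraspanin, fell from 28.9 ± 0.6 (SD, n = 3) to 8.75 ± 0.85 (SD, n = 3) FPKM (log2 fold change -1.89, adjusted p = 9.69e-15), and PLAUR, the urokinase receptor that associates with integrins at the membrane, fell from 6.51 to 3.34 mean FPKM (-1.13, adjusted p = 1.16e-10). RAB25 was not tested.

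**Figure D4:**
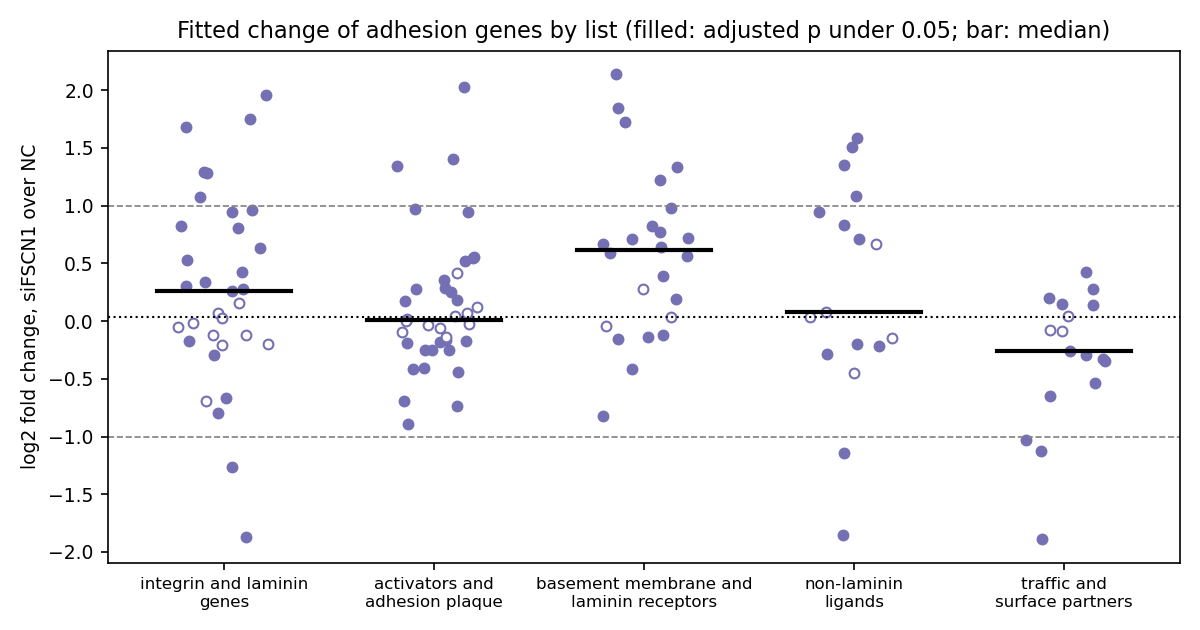
Log2 fold change of siFSCN1 over NC (y axis) for tested integrin and laminin genes and the tested genes of the 4 adhesion lists. Each point is a gene, filled at an adjusted p under 0.05, bars are medians of the points shown, the dotted line is the median of all tested genes and dashed lines mark 2-fold; the basement membrane list has the highest median (0.62) and the traffic list the lowest (-0.26).

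Scaling moved these counts. With library totals in place of TMM the median log2 fold change of all genes tested moved from 0.03 to 0.22 (0.15 with upper quartile scaling), the integrin and laminin genes went from 17 higher and 7 lower to 19 and 5, and ITGA6 (0.17) and ITGB4 (0.13) passed as higher. The same change took the activator and plaque list to 21 higher and 6 lower, the basement membrane list to 17 and 2, the ligand list to 10 and 2, and the traffic list to 8 and 8. Upper quartile scaling gave 18 and 9 for the activator list, 16 and 2 for the basement membrane list, and 9 and 2 for the ligand list. The rise of ITGAV, ITGB1, ITGB5, LAMA5, LAMB1, LAMB2 and LAMC1 and the fall of ITGA3 kept their direction and their call in all 15 alternatives in which they were fitted.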

How the data were processed

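Per the labels, libraries were made from polyadenylated RNA with a directional dUTP kit. The authors deposited raw counts per gene and FPKM. Their notes name bcl2fastq, TopHat2 and GRCh38, while the methods name HISAT2 with uniquely mapped reads. The counting program and its strand setting are not given in the sources used here, so reads of overlapping genes may be misassigned. FPKM as deposited by the authors was used for levels, sums and shares.

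Groups came from the sample titles, with 3 libraries each. Genes kept by filterByExpr (17076) were compared with edgeR 4.0.16 (R 4.3.3) by TMM scaling and the quasi-likelihood test, with Benjamini-Hochberg adjustment over all of them; a call needed an adjusted p under 0.05 and, where stated, a fold of at least 2. P-values of the fits set the difference between groups against the spread between these libraries. The script was tested on simulated data. Sums, shares and ratios were compared by exact two-sided permutation tests, which cannot go under 0.1. Overlaps came from GENCODE v44. DESeq2 1.42.0, limma 3.58.1 on log2(FPKM + 0.1) and log2(FPKM + 1), other scalings and filters, and leaving out each library were alternatives. The authors used DESeq2.

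The genes and lists were chosen with earlier results of these data known. Named were FSCN1, every other integrin and laminin gene (library values at a 2-fold call or a mean of 5 FPKM), and from each adhesion list up to 4 rises and 4 falls called 2-fold with at least 1 FPKM. Samples sharing a replicate number did not deviate together (correlations -0.03, 0.04 and -0.08). Protein sequence features were not analysed here. The counts include 1 laminin gene that is not reported here, and sums and shares of its class are left out.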

Additional observations from a re-analysis of the deposited data

How the results depend on the processing

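The number of integrin and laminin genes called at least 2-fold, 8, was 2 when the test itself asked for more than 2-fold (glmTreat), 3 and 1 with limma at pseudocounts of 0.1 and 1 FPKM, which shrink the folds of scarce genes, and 6 to 9 when a library was left out; the number past the threshold, 24, ranged from 22 to 25 then. ITGA6 reversed to 0.17 with library totals, and ITGB4 to 0.13 with library totals and to 0.11 with limma at either pseudocount; neither is called with TMM. With the replicate block, 25 genes passed in place of 24, the addition being LAMB3 (adjusted p = 0.0372), and 8 remained the number at 2-fold; the shared numbers do not mark a known pairing.

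In CPM, which is not scaled to length, the class ratios of siFSCN1 over NC were 0.720 (integrin alpha), 1.22 (integrin beta), 1.22 (laminin alpha) and 1.23 (laminin beta), and with FPKM divided by TMM factors 0.739, 1.19, 1.21 and 1.17. Share changes in CPM were -4.66 percentage points for ITGB4, 2.83 for ITGB5, 6.16 for LAMB2 and -5.51 for LAMB3, and that of LAMA5 was -1.12 with genes under 1 FPKM left out. Of the ratios, added after seeing the data, the change in CPM was 1.03 for integrin beta over alpha, 0.786 for ITGAV over ITGA3 and 0.573 for LAMB2 over LAMB3. In CPM the change of laminin beta over alpha went from -0.0423 to 0.0018 and that of the LAMB1 share from 0.68 to -0.72 percentage points, both within the spread between libraries. Depth limits the scarce genes most: the fitted standard error was largest for LAMB4 (0.54) and ITGA4 (0.43).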
